A study of Homo sapiens with 6 samples.

Results

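The unfolded protein response of the endoplasmic reticulum (ER) was described through 31 genes chosen by symbol with earlier results of these data known, all of which were found among the 56638 rows of the count table. By role they were 11 chaperones and folding helpers, 6 disulfide enzymes, 7 degradation genes, 4 sensors and transcription factors, and 3 translocation and export genes. The cells were MOLM-13, an established human acute myeloid leukaemia line grown in RPMI medium with 10% fetal bovine serum and antibiotics. They received either 2 µM UC-764864, named in the series title as an inhibitor of the ubiquitin-conjugating enzyme UBE2N and spelled UC-744864 in its design text, or DMSO alone. RNA was taken after 24 h from 3 libraries per treatment, UDI0051, UDI0052 and UDI0053 for UC-764864 and UDI0054, UDI0055 and UDI0056 for DMSO. The comparison asked which transcripts of the response differed between the treatments. No genetic change separated the groups, and 1 cell line, 1 dose and 1 time were sampled.

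Proteins destined for secretion or for membranes are folded in the ER with the help of chaperones and of enzymes that form disulfide bonds. When unfolded protein accumulates, the sensors IRE1 (encoded by ERN1), ATF6 and PERK (encoded by EIF2AK3) raise the transcription of chaperones and of ER-associated degradation genes and slow translation. IRE1 acts by splicing the XBP1 transcript, ATF6 is released by proteolysis to become a transcription factor, and PERK acts through translation of ATF4. Counts per gene record total transcript only, so neither XBP1 splicing nor ATF6 cleavage was measured.

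ATF6 and XBP1 are known to act through the ER stress element (ERSE), whose CCAAT end is bound by NF-Y. Promoter windows were taken from RefSeq (GRCh38.p14), from 250 bases before to 50 bases after each gene's start, and were held for 27 of the 31 genes (not for PDIA3, DERL1, DERL3 and SEC24D). The next 4 windows, 5′ to 3′ on the gene's strand with motif letters in capitals, show the motifs in the 3 genes that rose and hold one (HSPA5, CALR and HYOU1), beside the gene that fell most in fold (DNAJB9). Capitals mark the ERSE in HSPA5 and CALR, and in HYOU1 the related ERSE-II at both places and the UPR element (UPRE), which overlaps the first ERSE-II. DNAJB9 held none of these 3 motifs and has no capitals, though CCACG, the other end of the ERSE, occurred in it at 2 places. The choice does not set risers apart: of the 6 genes that rose and have a window, MANF, DNAJB11 and PDIA4 held none of the 3 motifs either, and 7 of 19 genes with a window that did not pass held at least 1.
HSPA5, chr9:125241294-125241593, minus strand: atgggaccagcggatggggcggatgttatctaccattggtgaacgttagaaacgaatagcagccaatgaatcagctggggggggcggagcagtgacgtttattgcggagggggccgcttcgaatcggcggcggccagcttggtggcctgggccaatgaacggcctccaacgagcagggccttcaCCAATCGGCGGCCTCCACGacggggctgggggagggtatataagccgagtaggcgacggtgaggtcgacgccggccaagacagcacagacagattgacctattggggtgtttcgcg
CALR, chr19:12938359-12938658, plus strand: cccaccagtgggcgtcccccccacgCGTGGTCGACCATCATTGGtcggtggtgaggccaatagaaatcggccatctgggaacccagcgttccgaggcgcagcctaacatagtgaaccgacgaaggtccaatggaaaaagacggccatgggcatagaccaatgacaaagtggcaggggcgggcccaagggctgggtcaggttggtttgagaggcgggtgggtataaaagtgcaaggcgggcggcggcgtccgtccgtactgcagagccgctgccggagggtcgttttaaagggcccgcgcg
HYOU1, chr11:119057156-119057455, minus strand: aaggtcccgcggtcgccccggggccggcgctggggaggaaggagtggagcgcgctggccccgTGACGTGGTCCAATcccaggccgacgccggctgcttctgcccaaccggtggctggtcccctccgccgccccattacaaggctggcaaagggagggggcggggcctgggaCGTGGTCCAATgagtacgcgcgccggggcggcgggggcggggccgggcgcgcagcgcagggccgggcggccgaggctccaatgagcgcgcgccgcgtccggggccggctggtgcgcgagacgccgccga
DNAJB9, chr7:108569624-108569923, plus strand: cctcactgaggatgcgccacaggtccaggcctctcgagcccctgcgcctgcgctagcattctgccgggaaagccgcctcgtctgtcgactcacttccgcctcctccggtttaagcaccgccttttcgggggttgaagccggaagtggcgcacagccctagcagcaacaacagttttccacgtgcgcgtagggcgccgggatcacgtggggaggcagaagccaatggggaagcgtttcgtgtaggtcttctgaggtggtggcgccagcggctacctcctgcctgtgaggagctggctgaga

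The ERSE was searched on both strands as CCAAT, 9 bases of any kind and CCACG, and 7 of 27 windows (25.9%) held it, against 27 of 34943 RefSeq windows (0.0773%). Each copy is given below on the strand that carries it, with its position from the gene's start and its fixed ends in capitals. Here plus means the gene's own strand and minus the opposite one, whereas the windows above were labelled by chromosome strand. The element is shared by genes that rose and by genes that did not pass.
HSPA5, -66 to -48, plus strand: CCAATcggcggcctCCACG
HSP90B1, -194 to -176, plus strand: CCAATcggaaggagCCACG
HSP90B1, -89 to -71, minus strand: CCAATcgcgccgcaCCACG
CRELD2, -80 to -62, minus strand: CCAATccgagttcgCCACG
CALR, -225 to -207, minus strand: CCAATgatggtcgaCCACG
CANX, -151 to -133, plus strand: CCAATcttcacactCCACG
ERO1LB, -243 to -225, minus strand: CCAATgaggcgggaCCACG
XBP1, -52 to -34, plus strand: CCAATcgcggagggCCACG
The 9 bases between the fixed ends differed among all 8 copies. The genes with an ERSE spanned log2 fold changes from 0.68 for CALR to -0.69 for ERO1LB, and of the 6 tested in all libraries, CALR and HSPA5 passed the test described below. ERSE-II, searched on both strands as ATTGG, 1 base of any kind and CCACG, was held by 3 of 27 windows (11.1%, HYOU1, SDF2L1 and HERPUD1) against 0.0544% of all windows. The UPRE, TGACGTGG, was held by HYOU1 alone, against 0.730% of all windows. The core CCACG, which ERSE and ERSE-II contain, was in 19 of 27 windows (70.4%) against 38.1% of all windows. These elements were first defined in promoters of genes of this response, so their presence is a description and says nothing of binding in these cells.

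Total counts were 17073654 to 25014437 in the UC-764864 libraries and 16136156 to 24511499 in the DMSO libraries, and a count of 3 corresponded to 0.123 to 0.198 CPM, which is counts scaled by the TMM-adjusted library size. On log2 CPM the treatments were separated by principal component 1 (56.2% of variance). UDI0052 and UDI0056 had the smallest share of counts in genes of at least 60% GC, 8.75% and 8.95% against 10.6% to 12.3% in the other libraries. DMSO library UDI0055 lacked values for 3799 rows, CRELD2 among them, and these rows were left out of the tests over 6 libraries. All 12 myeloid markers had counts, but CD14 and CD68 were at 0.721 CPM or less in every library. Of the 10 that were tested, LYZ was higher after UC-764864, while ITGAM, CSF1R and HOXA9 were lower (log2 fold changes 0.88, -1.02, -0.58 and -0.73). The sum of the 12, carried mostly by LYZ, was 6393 to 7388 CPM after UC-764864 and 4141 to 4403 CPM in DMSO. The part of these markers in the results was not tested. The summed level of 8 lymphoid markers was 1.68 to 2.89 against 2.86 to 3.49 CPM with CD2 and MS4A1 at 0. The 8 stromal and epithelial markers summed to 18.4 to 19.7 against 17.6 to 20.9 CPM with COL3A1 and DCN at 0. In bulk RNA, a change in the number of cells of a kind and a change in RNA per cell cannot be told apart.

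UC-764864 was followed by higher transcript of several luminal chaperones and protein disulfide isomerases and lower transcript of DNAJB9, ERO1L and DERL3. Of the 30 genes tested in all 6 libraries, 7 rose (23.3%), against 5.11% of all 13490 tested genes, and 3 fell (10.0%), against 8.13%, by edgeR's quasi-likelihood test at an adjusted p under 0.05. The share that fell was near the background. The other 20 did not pass. The median log2 fold change of the 30 genes, UC-764864 over DMSO, was 0.12, beside 0.01 over all tested genes. Values of the 2 groups did not overlap for 10 genes on the higher side, against 19.0% of tested genes, and for 6 on the lower side, against 17.0%. The roles differed in their counts: 5 of 10 tested chaperones rose and 1 fell, 2 of 6 disulfide enzymes rose and 1 fell, and 1 of 7 degradation genes fell with none higher. No sensor, transcription factor, translocation or export gene passed. Median log2 fold changes were 0.38 for chaperones, 0.15 for disulfide enzymes, -0.16 for degradation genes, 0.17 for sensors and transcription factors, and 0.13 for translocation and export. These differences between roles were not tested.

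**Figure D1:**
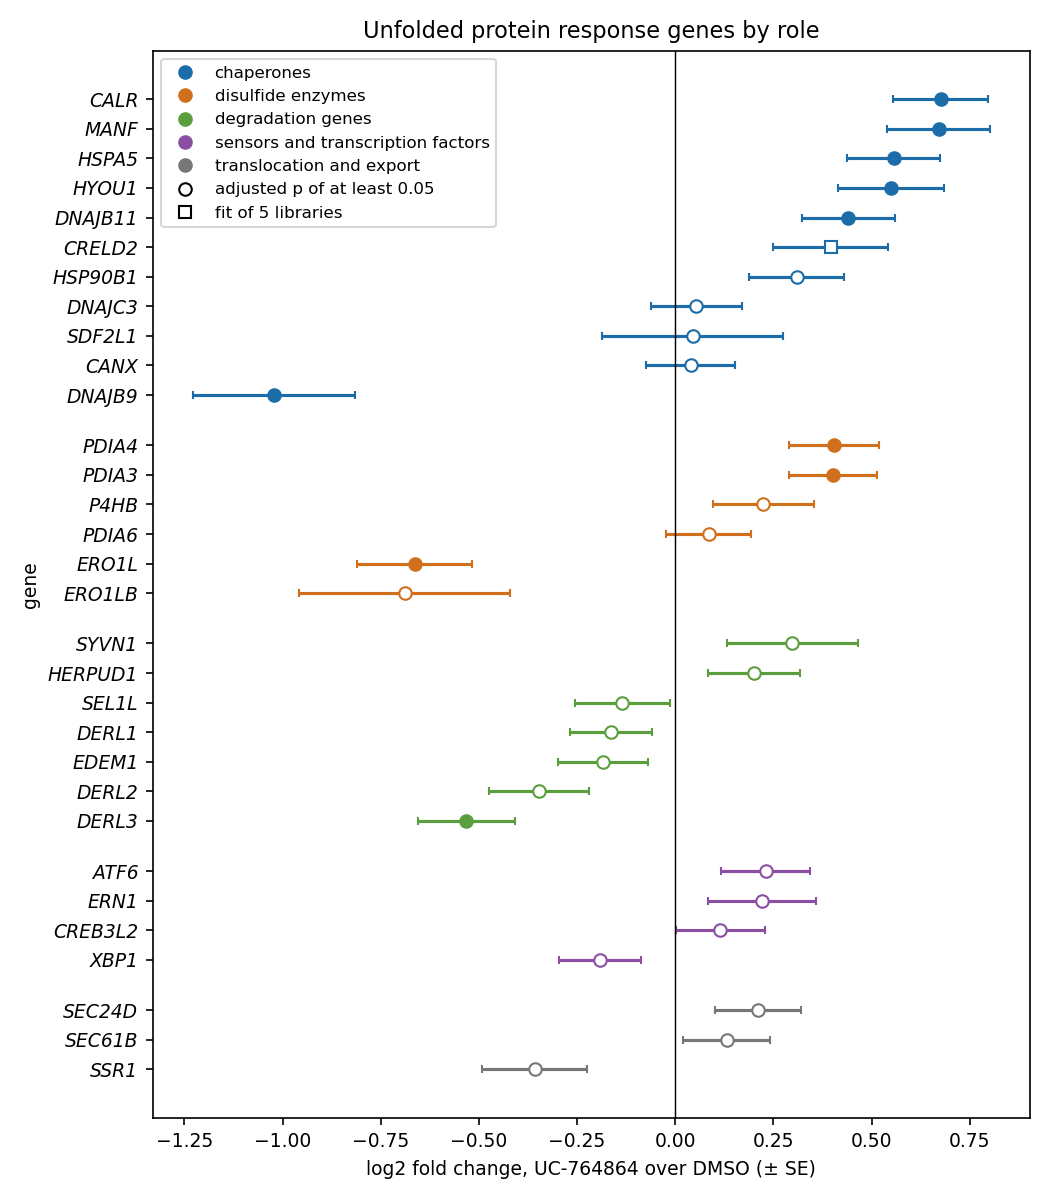
Log2 fold change of each of the 31 genes (x axis, UC-764864 over DMSO, ± SE) by gene (y axis), coloured by role. Filled symbols passed the adjusted p threshold, and the square is CRELD2 from the fit of 5 libraries. The 7 filled symbols right of 0 are chaperones and disulfide enzymes, and the 3 left of 0 are DNAJB9, ERO1L and DERL3.

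The number of calls depended on single libraries and on the GC treatment. Leaving out UDI0051, UDI0052, UDI0053 or UDI0054 left 1, 4, 3 and 2 genes higher and 1, 3, 0 and 2 lower, while the shares over all tested genes in those fits were 0.452%, 2.12%, 1.19% and 0.690% higher and 2.03%, 6.79%, 3.31% and 3.49% lower. Leaving out UDI0055 gave 9 higher (30.0%) and 5 lower (16.7%), against 11.1% and 12.6% of all tested genes. The genes gained in that fit were P4HB and SYVN1 on the higher side and DERL2 and ERO1LB on the lower. Calls were thus lost and gained over the whole table in these fits as well as among the 31 genes. With the rows that UDI0055 lacks kept as zeros, none passed, and over all genes that setting called 22 higher and 125 lower.

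CALR (calreticulin), a lectin chaperone that binds calcium and newly made glycoproteins, showed the largest rise. Its levels were 3423, 3161 and 2991 CPM after UC-764864 and 1961, 2313 and 1720 CPM in DMSO, so every treated library lay above every control library. The means were 3191 ± 218 (SD, n = 3) and 1998 ± 298 CPM (SD, n = 3), a log2 fold change of 0.68 ± 0.12 (SE) with an adjusted p of 0.00860. CANX (calnexin), its membrane-bound counterpart, was at 1008 ± 91.6 against 981 ± 92.5 CPM with overlapping libraries (log2 fold change 0.04 ± 0.11, adjusted p 0.841). The count ratio of CALR to CANX was 3.55, 2.84 and 3.16 in the treated libraries and 2.23, 2.30 and 1.62 in DMSO. CALR passed the test with each library left out in turn.

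HSPA5 (BiP), the HSP70 chaperone of the ER lumen and the repressor of the sensors at rest, rose. It measured 1134, 1171 and 986 CPM after UC-764864 against 718, 841 and 678 CPM in DMSO. The means were 1097 ± 97.6 and 746 ± 85.0 CPM (SD, n = 3 each), with a log2 fold change of 0.56 ± 0.12 and an adjusted p of 0.0149. HYOU1, an HSP110-like partner that exchanges nucleotide on BiP, was at 308, 262 and 266 CPM against 185, 224 and 162 CPM. Its log2 fold change was 0.55 ± 0.13 with an adjusted p of 0.0244. MANF, a small secreted protein that binds BiP, stood at 68.1, 71.1 and 58.9 CPM against 42.8, 45.4 and 36.0 CPM. Its log2 fold change was 0.67 ± 0.13 with an adjusted p of 0.0110. For none of these 3 genes did a treated library fall into the range of the DMSO libraries. Without UDI0051 the adjusted p of HSPA5, HYOU1 and MANF was 0.0720, 0.129 and 0.0529, and without UDI0054 that of HSPA5 and HYOU1 was 0.0657 and 0.0968. HYOU1 also missed the threshold without UDI0053, at 0.0661.

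The J-domain proteins that direct BiP to its substrates differed in direction. DNAJB11 (ERdj3), a soluble co-chaperone, was at 123, 132 and 104 CPM after UC-764864 and at 87.7, 89.6 and 86.4 CPM in DMSO. It rose with a log2 fold change of 0.44 ± 0.12 and an adjusted p of 0.0335. DNAJB9 (ERdj4), which is known to hold IRE1 inactive together with BiP and is a known target of spliced XBP1, was at 7.17, 9.71 and 6.95 CPM against 13.3, 13.7 and 21.4 CPM. Every treated library lay below every control library, and UDI0056 was the highest of the 6. DNAJB9 fell by 1.02 ± 0.21 on the log2 scale, with an adjusted p of 0.0127, from a mean of 16.2 ± 4.56 to 7.94 ± 1.54 CPM (SD, n = 3 each). DNAJC3 (P58IPK), a co-chaperone of BiP, did not pass, at 134 ± 10.3 against 129 ± 10.9 CPM. The adjusted p of DNAJB9 was 0.0514 without UDI0053, and that of DNAJB11 lay between 0.0508 and 0.157 without UDI0051, UDI0052, UDI0053 or UDI0054, while removing each library's GC trend moved its log2 fold change to 0.75.

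The remaining chaperones did not pass. HSP90B1 (GRP94), the HSP90 of the ER, was at 1428 ± 214 against 1153 ± 58.8 CPM (log2 fold change 0.31 ± 0.12, adjusted p 0.105), although its groups did not overlap. With the GC trend removed its log2 fold change was 0.42 with an adjusted p of 0.00249. CRELD2, a disulfide isomerase-like folding factor, was measured in 5 libraries, at 26.8, 24.0 and 26.0 CPM after UC-764864 and at 21.6 and 17.2 CPM in DMSO. Its log2 fold change in the fit of those 5 libraries was 0.40 ± 0.15 with an adjusted p of 0.0672. Leaving out UDI0052 or UDI0054 as well brought that p to 0.0340 and 0.0265, the latter against a single DMSO library. SDF2L1, a component of the BiP and ERdj3 complex, spread widely, at 41.8, 25.2 and 38.6 CPM against 30.2, 46.8 and 25.4 CPM. Its log2 fold change of 0.04 ± 0.23 was within that spread.

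**Figure D2:**
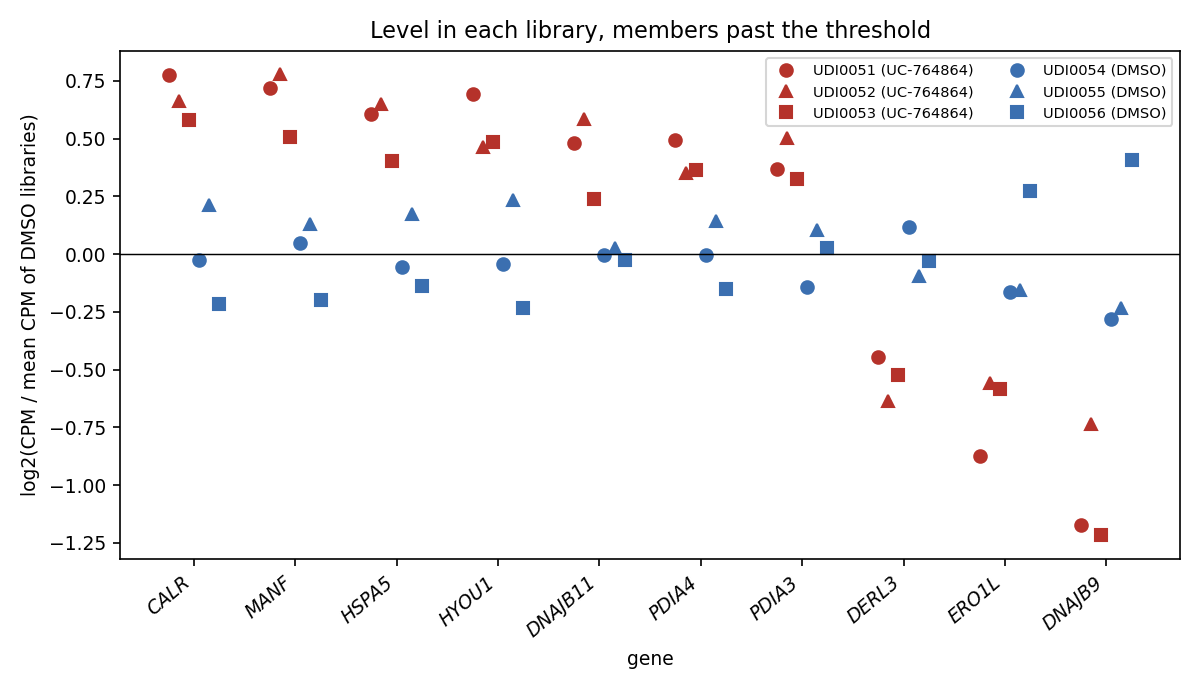
Log2 ratio of the CPM of each library to the mean CPM of the DMSO libraries (y axis) for the 10 genes past the threshold (x axis), with a symbol per library, UC-764864 in red and DMSO in blue. For all 10 genes the 3 red symbols lie on 1 side of the 3 blue ones, above them in 7 genes and below them in DERL3, ERO1L and DNAJB9.

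Among the disulfide enzymes, 2 isomerases rose and 1 oxidase fell. PDIA4 (ERp72), an isomerase of the lumen, was at 262, 237 and 240 CPM after UC-764864 and at 185, 205 and 168 CPM in DMSO (log2 fold change 0.40 ± 0.12, adjusted p 0.0404). PDIA3 (ERp57), which works with calreticulin and calnexin on glycoproteins, was at 473, 520 and 460 CPM against 332, 395 and 373 CPM (log2 fold change 0.40 ± 0.11, adjusted p 0.0371). Both rose without overlap between the groups. P4HB (PDI) was at 2356 ± 167 against 2017 ± 343 CPM (adjusted p 0.255), and PDIA6 at 450 ± 21.5 against 425 ± 36.6 CPM (adjusted p 0.626), and neither passed. ERO1L (ERO1-alpha), the oxidase that recharges PDI, was at 70.3, 87.5 and 86.0 CPM against 115, 116 and 156 CPM. It fell by 0.66 ± 0.15 (log2), with an adjusted p of 0.0168, and every treated library lay below the DMSO range. Its paralog ERO1LB was scarce, at 3.74, 4.21 and 2.89 CPM against 4.95, 4.13 and 8.70 CPM. The log2 fold change of ERO1LB was -0.69 ± 0.27, its groups overlapped, and it did not pass (adjusted p 0.105).

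The calls of PDIA3 and PDIA4 were lost without UDI0051, UDI0052, UDI0053 or UDI0054 (adjusted p 0.0738 to 0.210) and when counts were scaled by library size alone (0.0532 and 0.0536), and that of PDIA4 also without UDI0056 (0.0846). ERO1L missed the threshold without UDI0051 (0.0928) or UDI0053 (0.0519), and its log2 fold change was -0.39 with the GC trend removed. PDIA3 is uncertain as well, because counting may divide reads between it and its processed copy PDIA3P1. PDIA3P1 rose from 21.3 ± 2.39 to 30.7 ± 3.34 CPM (log2 fold change 0.52 ± 0.14, adjusted p 0.0300). The copy held 309 to 622 counts per library, against 5665 to 10495 for PDIA3. How far divided reads moved PDIA3 was not tested.

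ER-associated degradation takes misfolded protein out through the membrane for the proteasome. DERL3, a derlin of that channel, was at 25.1, 21.9 and 23.7 CPM after UC-764864 and at 37.0, 32.0 and 33.4 CPM in DMSO. It fell by 0.53 ± 0.12 on the log2 scale, with an adjusted p of 0.0194 and no overlap. DERL2, a relative, was at 28.2, 31.9 and 28.7 CPM against 38.4, 33.3 and 41.3 CPM, without overlap and without passing (log2 fold change -0.35 ± 0.13, adjusted p 0.0887). DERL1 was at 161 ± 3.30 against 180 ± 8.87 CPM, also below the DMSO range, with a log2 fold change of -0.16 ± 0.10 and an adjusted p of 0.302. The 3 derlins thus had values below 0, of which only that of DERL3 passed in the fit of 6 libraries. Without UDI0055 that of DERL2 passed as well. SYVN1 (HRD1), the ubiquitin ligase of the pathway, was at 58.3 ± 10.0 against 47.3 ± 9.68 CPM (adjusted p 0.243). Its adaptor SEL1L was at 109 ± 7.35 against 120 ± 13.2 CPM. HERPUD1, which organises the ligase complex, was at 59.7 ± 2.76 against 52.0 ± 4.82 CPM. EDEM1, which marks glycoproteins for disposal, was at 165 ± 11.9 against 187 ± 16.4 CPM. None of these 4 passed in the fit of 6 libraries, and the libraries of the 2 groups overlapped for each. SYVN1 passed on the higher side without UDI0055.

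DERL3 is uncertain: 77.0% of its exon length in the GENCODE annotation (GRCh38) is overlapped by SMARCB1 on the opposite strand, and whether counting used the strand is not given in the sources used here. SMARCB1 was at 127 ± 12.7 against 103 ± 13.8 CPM (log2 fold change 0.29 ± 0.13, adjusted p 0.151), and DERL3 missed the threshold without UDI0051, UDI0053 or UDI0054 (adjusted p 0.0766 to 0.0901). Overlaps with other genes, added gene by gene, came to 33.3% of the exon length of PDIA3, 25.2% for PDIA6 and 23.2% for DNAJB11. Bases under several neighbours count more than once in these sums. The overlapping genes lay on the opposite strand for PDIA3 and PDIA6, and on either strand for DNAJB11.

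The sensors and transcription factors did not pass the test. ATF6 was at 86.6, 97.8 and 84.4 CPM after UC-764864 and at 72.2, 77.9 and 78.9 CPM in DMSO, without overlap (log2 fold change 0.23 ± 0.11, adjusted p 0.187). XBP1 was at 371, 404 and 396 CPM against 413, 471 and 454 CPM, also without overlap but in the other direction (log2 fold change -0.19 ± 0.11, adjusted p 0.235). ERN1, whose product splices XBP1, was at 19.5, 17.2 and 15.8 CPM against 14.7, 16.4 and 13.9 CPM (adjusted p 0.291). CREB3L2, a membrane-bound transcription factor processed like ATF6, was at 59.3 ± 2.79 against 54.8 ± 3.25 CPM (adjusted p 0.515). With the GC trend removed ATF6 passed, at a log2 fold change of 0.34 and an adjusted p of 0.00565.

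Of the translocation and export genes, SEC24D, a cargo adaptor of the COPII coat, was at 115, 117 and 107 CPM against 91.6, 97.8 and 103 CPM, higher without overlap and without passing (adjusted p 0.211). SEC61B, a subunit of the translocation channel, was at 83.7 ± 1.54 against 76.4 ± 6.06 CPM (adjusted p 0.446). SSR1, a subunit of the complex attached to that channel, was at 241 ± 24.4 against 308 ± 46.8 CPM (log2 fold change -0.36 ± 0.13, adjusted p 0.0944), with overlapping libraries.

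Per kilobase of exon length the levels of the 31 genes spanned a wide range. CALR had the highest level in both treatments, with 736 CPM per kb in DMSO and 1176 CPM per kb after UC-764864. P4HB followed with 380 and 444, HSP90B1 with 246 and 304, and HSPA5 with 191 and 281 CPM per kb. ERN1 was at 1.38 and 1.61, and ERO1LB was lowest at 1.11 and 0.674 CPM per kb. The genes that rose thus included the most abundant transcript per length, while DNAJB9 was at 5.69 and 2.80 CPM per kb. The 30 genes other than CRELD2 together took 1.18% to 1.29% of the counts in the rows held by all libraries after UC-764864 and 0.994% to 1.11% in DMSO. The chaperones summed to 6775 to 7756 against 5151 to 5823 CPM, a difference to which CALR, HSPA5 and HSP90B1 contributed most counts. The degradation genes summed to 602 to 613 against 622 to 683 CPM, so the treated libraries lay above DMSO in one sum and below it in the other, without overlap. The disulfide enzymes summed to 3488 to 3693 against 2763 to 3537 CPM and the sensors and transcription factors to 534 to 580 against 550 to 622 CPM, both with overlap.

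**Figure D3:**
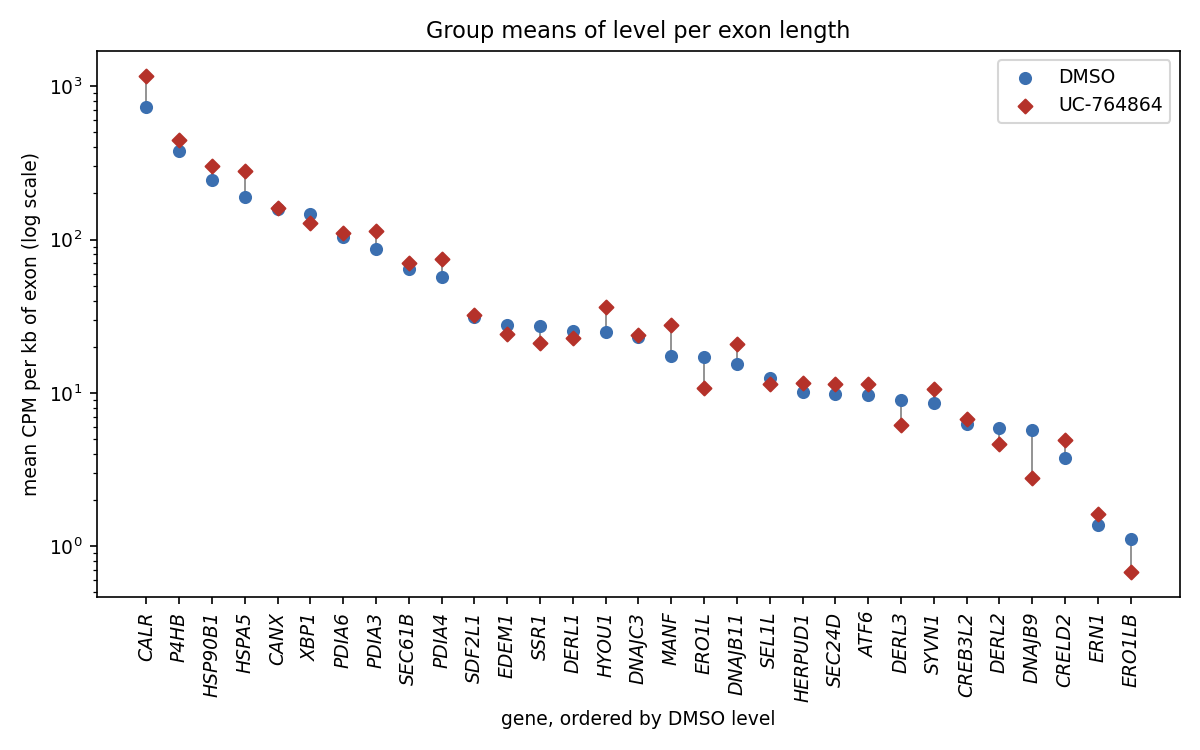
Mean level per kilobase of exon (y axis, CPM per kb, log scale) of each of the 31 genes, ordered by the level in DMSO (x axis), with DMSO as blue circles and UC-764864 as red diamonds. CALR lies highest and ERO1LB lowest in both treatments, and the spread between libraries is not drawn.

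Gene GC content moved with the differences. The median GC of the 7 genes that rose was 51.6% (37.8% to 55.2%), that of the 3 that fell 40.4% (38.7% to 59.9%), and that of the 20 others 44.2%. Across the 30 genes Spearman's rho of GC with the log2 fold change was 0.45, and across 12186 tested genes with a GC value it was 0.25. These are descriptions across genes of the same 6 libraries, and genes are not independent replicates. With each library's GC trend removed, 10 of the 30 genes were higher (33.3%) and 4 lower (13.3%). Over all 12186 genes tested in that fit, 2395 were higher (19.7%) and 1607 lower (13.2%). The share of members lower was thus near the background. The share higher, 33.3% against 19.7%, exceeded its background by less than the 23.3% against 5.11% of the fit without this removal. The 7 and 3 genes above all passed in the same direction. HSP90B1, ATF6 and DNAJC3 were the further genes that passed on the higher side, and EDEM1 on the lower.

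**Figure D4:**
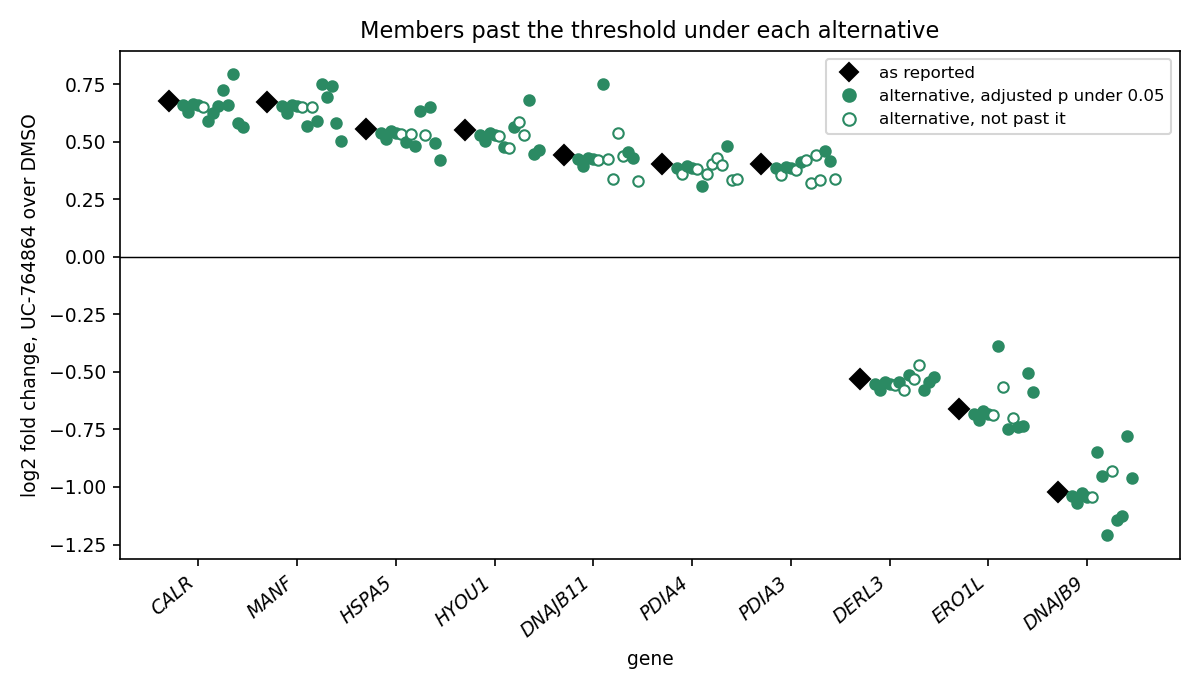
Log2 fold change (y axis, UC-764864 over DMSO) of the 10 genes past the threshold (x axis), as reported (diamonds) and under each alternative processing (circles, filled where the adjusted p was under 0.05). CALR spans 0.56 to 0.79 and DNAJB9 -1.21 to -0.78, and no point of the 10 genes crosses 0. Leaving out libraries could hardly make one cross, because the groups did not overlap for these genes.

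Other genes of the pathway, 115 by a list drawn from background knowledge, were read from the same fit. Of 109 tested in all libraries, 8 rose (7.34%) and 13 fell (11.9%), with a median log2 fold change of -0.00. Over all tested genes the shares were 5.11% and 8.13%, so both lay near the background, and nothing is read from the counts by role that follow. In the PERK arm 1 of 9 passed: TRIB3, a pseudokinase induced by ATF4, fell by 0.62 ± 0.12 in log2 units (65.8 ± 7.47 against 101 ± 2.92 CPM, adjusted p 0.0103). EIF2AK3 itself (18.5 ± 1.93 against 18.9 ± 2.61 CPM, adjusted p 0.921), ATF4 (565 ± 23.2 against 608 ± 26.8 CPM, 0.498) and DDIT3, which encodes CHOP (13.8 ± 1.07 against 15.2 ± 2.86 CPM, 0.589), did not pass.

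Among other chaperones and genes of the glycan folding cycle 2 of 20 rose and 2 fell. UGGT1, the enzyme that returns misfolded glycoproteins to calreticulin and calnexin, rose from 112 ± 7.83 to 156 ± 8.18 CPM (adjusted p 0.0206). Its paralog UGGT2 fell from 24.1 ± 4.39 to 16.7 ± 1.33 CPM (adjusted p 0.0422), and HSPA13, an HSP70 relative, fell from 84.4 ± 29.6 to 49.0 ± 8.15 CPM (adjusted p 0.0340). Among other degradation genes 2 of 24 rose and 3 fell. RNF139, a ubiquitin ligase of the ER membrane, was at 86.8, 111 and 104 CPM after UC-764864 against 192, 188 and 223 CPM in DMSO, and fell by 1.00 ± 0.13 in log2 units (adjusted p 0.00250). FAM8A1, a cofactor of HRD1, fell from 34.4 ± 8.84 to 16.0 ± 1.49 CPM (adjusted p 0.00579). UBE2G2, a ubiquitin-conjugating enzyme of the degradation pathway, rose from 126 ± 11.5 to 173 ± 10.1 CPM (adjusted p 0.0262). Among other disulfide enzymes 1 of 13 rose, ERP29 (427 ± 39.2 to 563 ± 14.3 CPM, adjusted p 0.0336), and 2 fell, TXNDC16 (12.7 ± 2.01 to 6.38 ± 0.871 CPM, 0.00647) and TMX3 (112 ± 29.1 to 67.0 ± 13.0 CPM, 0.0256).

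Among the translocation genes, SERP1, SEC61G and TRAM1 fell. SERP1, a small stabiliser of membrane proteins at the channel, was at 110, 124 and 142 CPM after UC-764864 against 219, 242 and 304 CPM in DMSO, and fell by 1.02 ± 0.15 in log2 units (adjusted p 0.00357). SEC61G, the gamma subunit of the channel, fell from 63.4 ± 3.86 to 34.9 ± 4.33 CPM (adjusted p 0.00391), and TRAM1, which assists insertion, from 426 ± 130 to 198 ± 22.8 CPM (adjusted p 0.00647). In all, 3 of 32 genes of translocation, glycosylation and export rose and 4 fell. In sensor processing 1 of 11 passed, CREBRF, a regulator of CREB3 (log2 fold change -0.88 ± 0.24, adjusted p 0.0374), with overlapping libraries. RNF139, SERP1 and SEC61G passed in every alternative run, and the log2 fold change of SEC61G was -0.43 with the GC trend removed. In that fit HSPA13, UGGT2 and CREBRF no longer passed, at -0.24, -0.18 and -0.39, and TMX3 was at -0.31. Without UDI0051 the adjusted p of TRIB3 was 0.0545, and those of HSPA13, TMX3, UGGT2 and CREBRF were 0.129, 0.111, 0.185 and 0.131. These 4 also missed the threshold without UDI0053 or UDI0054, UGGT2 without UDI0052 or UDI0056, and CREBRF without UDI0052. HSPA13 was at -0.46 without UDI0056. The other pathway genes higher numbered 0 without UDI0051, UDI0052, UDI0053 or UDI0054, 24 (21.8%) without UDI0055 and 3 (2.75%) without UDI0056. Over all tested genes the shares higher in those fits were 0.452%, 2.12%, 1.19%, 0.690%, 11.1% and 3.71%. Other pathway genes lower numbered 6 (5.45%), 7 (6.36%) and 8 (7.34%) without UDI0051, UDI0053 and UDI0054. The shares lower over all tested genes there were 2.03%, 3.31% and 3.49%.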

How the data were processed

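Poly(A) RNA was sequenced per the labels' protocols, with paired reads of 75 bp. The authors deposited whole-number counts per gene, unnormalised; the submitters' processing notes name FastQC 0.11.7, HISAT2 2.0.5, featureCounts 1.5.2 and GRCh37. Neither the annotation release nor the strand setting is given in the sources used here. Column treatments came from a second deposited table. Whether replicate libraries are separate cultures is not stated, so the p-values reflect the spread between these samples alone, and that spread may be technical.

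Rows in unbroken runs of 0 in UDI0055 (3799 of 56638) were read as missing, which left 52839. After filterByExpr and TMM scaling, counts were tested with edgeR 4.0.16 (glmQLFit, glmQLFTest, R 4.3.3), treatment being the only term, with Benjamini-Hochberg adjustment over 13490 genes. CRELD2 was tested in the same fit without UDI0055. SE is the size of the log2 fold change over the square root of F. CPM, those of markers included, use TMM-scaled sizes of the rows held by all libraries (CRELD2: of the 5 libraries). DESeq2 1.42.0 was an alternative. The code was tested on simulated data. At the threshold it recovered 30.6% of 98 genes changed 1.5-fold and 85.9% of 99 genes changed 2-fold. A gene that did not pass is therefore not shown to be unchanged. In the same simulation 10 genes that had not been changed were called, so a call can be false. GC, exon lengths and overlaps came from GENCODE v29 (GRCh38), not the build of the counts. Floors of 3 counts cover counting error only, as reads carry no molecular identifiers.

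The members and lists were chosen with earlier results of these data known. All members are described; other pathway genes are named if past the threshold, up to 3 per role in order of p, plus ATF4, DDIT3 and EIF2AK3. SMARCB1 and PDIA3P1 were chosen after their values were seen, as was the ERSE-II motif. ER retrieval signals of the proteins were not analysed here. The result of a further marker list is not reported here.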

Additional observations from a re-analysis of the deposited data

How the results depend on the processing

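Alternatives were another scaling (RLE factors or library size only), no filter, DESeq2, all rows as deposited, removal of each library's GC trend, leaving out each library, and leaving out UDI0052 and UDI0056 together. No paired analysis was possible because the table's columns carry no replicate number. None of the 10 called members reversed in any of them. The groups did not overlap for any of these 10, so leaving out libraries could hardly reverse a sign and does not test the calls in this respect. Kept as deposited, the rows gave 22 genes higher (0.157%) and 125 lower (0.891%) over all genes. They gave 0 and 0 members, and 0 and 4 (3.64%) other pathway genes. With the GC trend removed, 2395 genes were higher (19.7% of those tested, and 59.8% of calls, against 38.6%). With this setting 28 other pathway genes were higher (25.7%), and CRELD2 passed (0.30, adjusted p 0.0129). No filter gave 1676 genes lower. Library size only gave 3 other pathway genes higher (2.75%, against 3.77% of all tested genes), and 28.6% of calls over all genes were higher. Without UDI0052 and UDI0056, 4 members (13.3%) and 3 other pathway genes (2.73%) were higher, against 4.07% of all tested genes. In that fit 3 members (10.0%) and 14 other pathway genes (12.7%) were lower, against 8.98%. DNAJB11, PDIA3 and PDIA4 no longer passed in it. CRELD2 was at 0.29 without these libraries, against a single DMSO library. Leaving out 1 library gave 62 to 1525 genes higher (0.452% to 11.1%) and 278 to 1729 lower (2.03% to 12.6%). Of the members, 1 to 9 were higher (3.33% to 30.0%) and 0 to 5 lower (up to 16.7%). Of the other pathway genes, 0 to 24 were higher (up to 21.8%) and 6 to 19 lower (5.45% to 17.3%). Over these fits CRELD2 ranged from 0.23 to 0.57. Values near 0 changed sign. With library size only, SDF2L1 was at -0.00069 and CANX at -0.0062. Without UDI0052 and UDI0056, CANX was at -0.0039 and PDIA6 at -0.038, and with the GC trend removed SEL1L was at 0.090. With 1 library left out, DNAJC3 ranged from -0.036 (without UDI0052) to 0.119, SDF2L1 from -0.124 (without UDI0056) to 0.345, CANX from -0.065 (without UDI0052) to 0.099, DDIT3 from -0.267 to 0.014 (without UDI0054), and EIF2AK3 from -0.123 to 0.088 (without UDI0056). The cause was not tested. Fits without a library have fewer samples, and 3 libraries per group limit what can be told apart.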
